A study of Physcomitrium patens with 4 samples.

Results

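A set of 118 genes of the moss Physcomitrium patens was examined whose transcripts were more abundant in the wild-type dark library than in the other 3 libraries of the study. They were chosen from 32273 genes by their read numbers, so the pattern itself is a choice and not a finding. A level was defined as the reads of a gene plus 0.5, divided by the reads summed over all genes of that library. A gene was taken when its level after red light was at most 0.4 of the dark level in wild type, when its level in dark pubs hy2 was at most 0.5 of that in dark wild type, and when the red light level in pubs hy2 was from 0.67 to under 1.5 of its own dark level. It also needed at least 50 reads in the wild-type dark library and a multi-mapping share (reads that fit several places) under 0.1 in each library. Of 32273 genes, 15862 met these last 2 limits, and the 118 genes were chosen among them.

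The groups were pubs hy2 after 1 hour of red light, pubs hy2 in the dark, wild type after 1 hour of red light, and wild type in the dark. Each was represented by 1 library, and all were of the ecotype Gransden2004. Per the labels the material was protonema, the filamentous stage of the moss, with chloronema, its chloroplast-rich filament type, as tissue. The protonema was 10 days old and was kept in the dark for 3 days, and the red light of a 660 nm LED was given at 25 °C and a fluence rate of 5 μmol m-2 s-1. The dark libraries were taken at time 0, so the red light libraries differ from them also by the elapsed hour, and these cannot be told apart. The labels describe pubs hy2 as a double mutant deficient in phytochrome. The sources used here do not say how many lines of it were grown or whether libraries came from separate cultures. The summed reads of the libraries ranged from 15098951 to 24560047. No replicate exists, so each comparison below sets 1 library against another, no p-value was computed, and intervals cover the counting error of reads only. Fewer cells of a type and less RNA per cell cannot be told apart in such bulk samples.

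Phytochromes are photoreceptors that switch between a red-absorbing and a far-red-absorbing form, and they do so through a covalently bound linear tetrapyrrole, the bilin chromophore. HY2 and PUBS are bilin reductases that make such pigments from biliverdin, so a plant that lacks them makes phytochrome protein without its usual chromophore. In land plants, light seen by phytochrome lowers many transcripts that accumulate in darkness, in part through turnover of phytochrome-interacting transcription factors. The identifiers in the files carry no names, and 0 of the 32273 were found in the RefSeq gene table of the moss (assembly ASM5946719v1). The 118 genes are therefore described by identifier, level, length and position, and neither the mutated genes nor markers of chloronema could be looked up.

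The limits hold the 118 genes below dark wild type in 3 libraries, and so shape how near the summed levels lie there. Among these 3 libraries the genes differed little in their summed share of reads. They held 0.158% of all reads in pubs hy2 after red light (95% exact interval 0.156% to 0.159%), 0.156% in dark pubs hy2 (0.154% to 0.158%) and 0.159% in wild type after red light (0.157% to 0.160%). In dark wild type they held 0.518% (0.514% to 0.521%). The authors' RPKM scales reads by gene length and by a library total that is not the sum over genes used for levels. It sets red-lit wild type slightly lower against the other libraries than levels do, so RPKM ratios differ slightly from level ratios. The median RPKM of the genes was 3.13 in red-lit pubs hy2 and 3.09 in dark pubs hy2, against 2.68 in red-lit and 8.41 in dark wild type. In RPKM, all 118 were highest in dark wild type, and the lowest value lay in red-lit wild type for 71 genes, in dark pubs hy2 for 24 and in red-lit pubs hy2 for 23. Pp1s237_84V6 alone held 5.81% and 8.24% of the set's reads in pubs hy2 (red light and dark), and 17.0% and 15.0% in wild type. The nearness of the 3 summed shares thus depends on this gene, which weighs most in red-lit wild type. Summed RPKM of the set was 850 in red-lit and 823 in dark pubs hy2, against 766 in red-lit and 2629 in dark wild type. By that measure red-lit wild type was lowest, so nothing is read from the order of the 3 libraries.

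**Figure D1:**
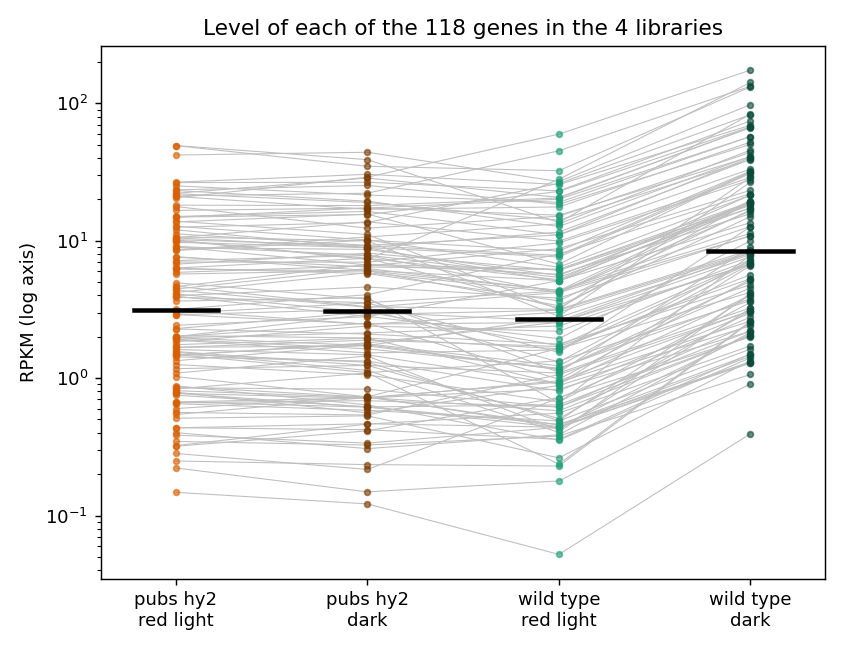
RPKM (log axis) of each of the 118 genes in the 4 libraries, with grey lines joining the values of a gene and black bars at the medians. The medians of 3.13, 3.09 and 2.68 in the first 3 libraries lie below that of 8.41 in dark wild type, as the rule requires. They lie near each other, which the limits of the rule shape but do not fix between the genotypes.

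The ratios that chose the genes spread unevenly inside their limits. In wild type the level after red light was 0.0877 to 0.396 of the dark level, with a median log2 fold of -1.69, against -0.06 over the 15862 genes that met the read and multi-mapping limits. Most of the set lay near the limit: 63 genes had a ratio above 0.3, 36 had at most 0.25 and 21 had at most 0.2. In the dark the level in pubs hy2 was 0.0514 to 0.4999 of that in wild type, with a median log2 fold of -1.54, against -0.23 over all genes that met the limits. At most 0.25 was found for 21 genes and at most 0.2 for 12. The dark ratio was the smaller of the pair in 40 of the 118 genes. Both ratios have the wild-type dark library as denominator, so any excess of a gene in that single library lowers them together.

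**Figure D2:**
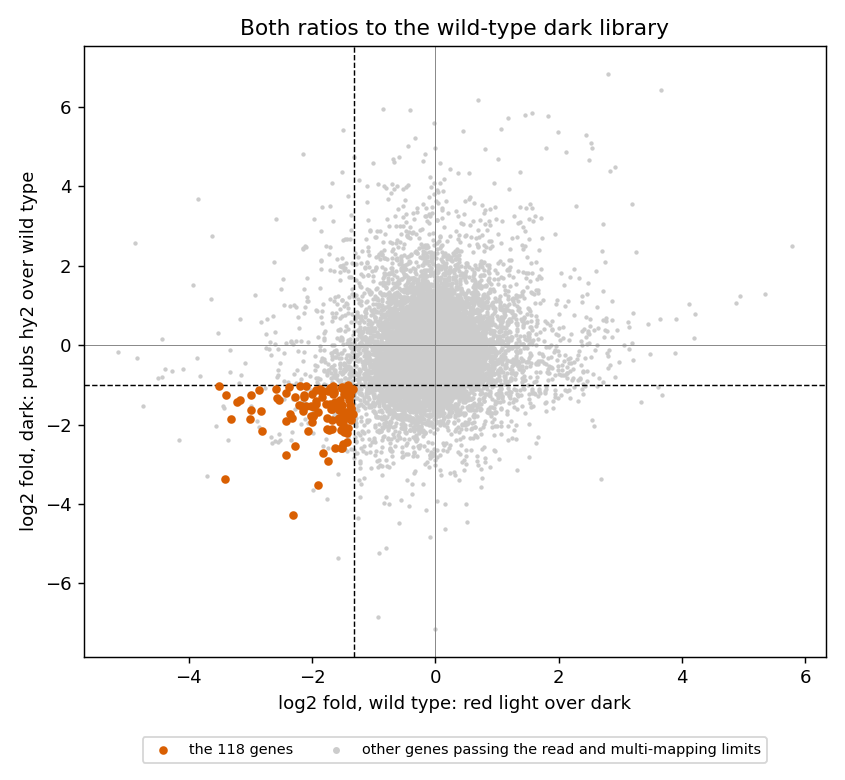
Log2 fold between red light and dark in wild type (horizontal) against log2 fold between pubs hy2 and wild type in the dark (vertical), for the 118 genes in orange and for the other genes that met the read and multi-mapping limits in grey. Dashed lines mark the limits of 0.4 and 0.5. The 118 genes lie left of one line and below the other, and grey points beside them had a red light ratio in pubs hy2 outside 0.67 to 1.5.

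A size rule served to set the genes beside all others. It called a gene higher or lower when its fold was at least 2 and the 95% counting interval of the fold (Clopper-Pearson) excluded 1, among genes with at least 50 reads summed over the libraries compared. All 118 genes were called lower after red light in wild type, where 5.78% of all 18303 measured genes were called lower and 5.76% higher. In the dark comparison all 118 were called lower in pubs hy2, against 12.9% of 18266 measured genes, and 100 of them were with libraries scaled by TMM factors. None of the 104 that were measured in pubs hy2 was called higher or lower after red light, against 4.22% and 2.14% of 18531 genes. When the mutant's red light fold was divided by the wild-type one, 115 of 118 genes were called above 1 and 0 below, against 8.92% and 5.49% of 19825 genes. These 4 counts follow from the limits, and nothing is read from them.

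Among the 487 genes at or below the wild-type limit, 108 had a ratio under 0.67 in pubs hy2, 312 had one from 0.67 to under 1.5, and 67 had one of at least 1.5. The 312 genes divided further by their dark level. The 118 genes were 37.8% of them, another 48 had a dark ratio between 0.5 and 0.67, 71 had one from 0.67 to under 1.5 and 75 had one of at least 1.5. Over all 15862 genes, 2091 (13.2%) had a dark ratio of at most 0.5, and 55.3% had one from 0.67 to under 1.5. The wild-type limit and the dark ratio share a library, so these shares are not independent. The roles of the libraries were also exchanged under the same limits, with the minimum of reads then asked of the high library. High in red-lit pubs hy2 alone were 15 of 16544 genes, and in dark pubs hy2 alone 14 of 15581. In red-lit wild type alone there were 60 of 16228, beside the 118 of 15862 high in dark wild type alone. Each count rests on single libraries, so nothing is read from how they compare.

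The level in dark pubs hy2 over that in red-lit wild type is the dark ratio divided by the wild-type red light ratio. Both ratios chose the genes, so the rule shaped this comparison without fixing it. Dark pubs hy2 stood above red-lit wild type in 78 of the 118 genes, with a median log2 fold of 0.21 and a range of -1.97 to 2.48, against a median of -0.16 over all genes that met the limits. The ratio lay within 1.5-fold of 1 for 73 genes, its counting interval included 1 for 53, lay above 1 for 43 and lay below 1 for 22. Of all genes that met the limits, 32.04% had an interval above 1 and 47.7% one below 1. By the size rule 15 of 101 measured genes were called higher in dark pubs hy2 and 5 were called lower, where 14.6% and 14.2% of 18479 genes were called. The called shares of the set were 14.9% and 4.95%. A ratio of at most 0.5 needs a dark ratio of at most 0.2, which 12 genes had. One of at least 2 needs a wild-type red light ratio of at most 0.25, which 36 had. The limits thus shape these shares, and nothing is read from how they compare with all genes. Dark pubs hy2 was thus above, near or below red-lit wild type, depending on the gene.

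The same held in red light. There pubs hy2 was above wild type in 80 genes, with a median log2 fold of 0.26 and a range of -1.56 to 2.40, against a median of -0.14 over all genes that met the limits. By the size rule 14 of 105 measured genes were called higher in pubs hy2 and 6 were called lower, where 14.6% and 11.9% of 18868 genes were called. The called shares of the set were 13.3% and 5.71%. This comparison too is built wholly from the ratios that chose the genes, so nothing is read from how these shares compare with all genes.

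**Figure D3:**
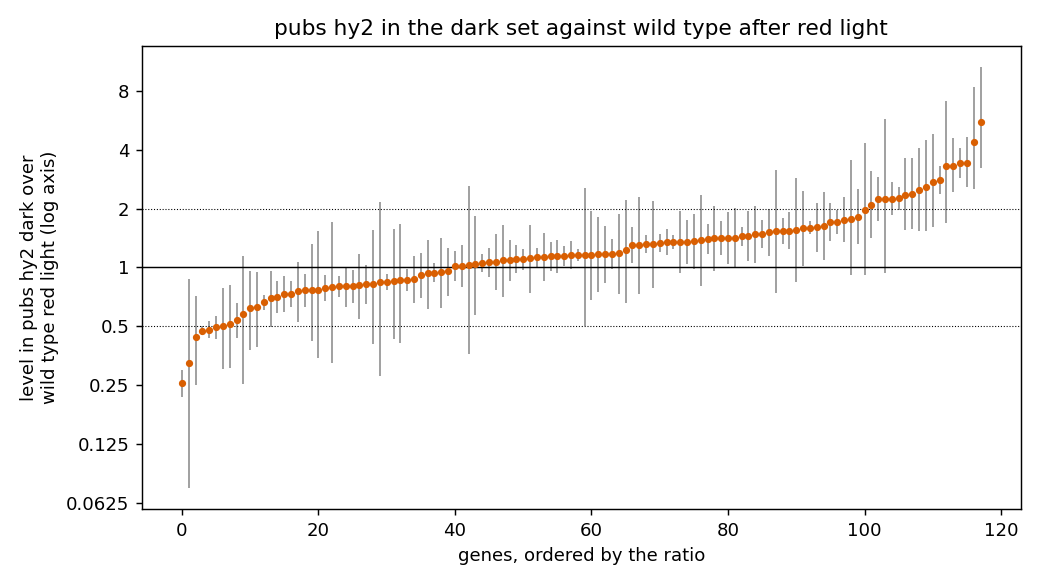
Level in dark pubs hy2 over level in red-lit wild type (log axis) for the 118 genes in rising order, with 95% counting intervals as vertical lines, a solid line at 1 and dotted lines at 2 and 0.5. The ratio was above 1 for 78 genes, and 73 lay within 1.5-fold of 1.

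The 10 genes of the set with the highest RPKM in dark wild type included members of each kind. Pp1s237_84V6 (length 3.97 kb) had 20.5 RPKM in red-lit and 29.0 in dark pubs hy2, against 59.6 in red-lit and 174 in dark wild type. It rested on 2104 and 1940 reads in pubs hy2, and on 6646 and 13635 in wild type. Both mutant libraries were thus below red-lit wild type, with a ratio of 0.475 (95% counting interval 0.451 to 0.4995) for dark pubs hy2. Its red light fold in pubs hy2 was 0.713 (0.67 to 0.758), near the lower limit of the rule.

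Pp1s440_14V6 had the lowest dark ratio of all 118 genes. It had 10.1 RPKM in red-lit and 7.31 in dark pubs hy2 (377 and 178 reads), against 28.0 in red-lit and 142 in dark wild type (1134 and 4035 reads). The dark ratio of pubs hy2 to wild type was 0.0514 (0.0439 to 0.0596), and the red light ratio in wild type was 0.201 (0.188 to 0.215). The mutant level lay below both wild-type libraries, and it was higher after red light than in the dark, with a fold of 1.39 (1.16 to 1.67).

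Pp1s469_14V6, Pp1s423_9V6 and Pp1s67_50V6 were also lower in both mutant libraries than in red-lit wild type. Pp1s469_14V6 had 21.2 RPKM in red-lit and 22.1 in dark pubs hy2, against 45.1 in red-lit and 133 in dark wild type. Pp1s423_9V6, the shortest of the set at 0.105 kb, had 12.5 and 13.5 RPKM in pubs hy2 from only 34 and 24 reads, against 26.1 and 82.5 RPKM in wild type from 77 and 171 reads (red light and dark). Pp1s67_50V6 had 14.9 and 15.5 RPKM in pubs hy2, against 22.8 and 67.4 in wild type. In each of these the red light ratio in pubs hy2 was near 1, at 0.961, 0.925 and 0.965 in that order, and each counting interval included 1.

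Pp1s64_60V6 and Pp1s72_230V6 had nearly the same level in 3 libraries. Pp1s64_60V6 had 26.5 RPKM in red-lit and 26.6 in dark pubs hy2, against 23.0 in red-lit and 74.4 in dark wild type. Pp1s72_230V6 had 26.6 and 30.4 RPKM in pubs hy2, against 25.6 and 69.2 in wild type. Dark pubs hy2 over red-lit wild type was 1.13 (1.01 to 1.26) for Pp1s64_60V6 and 1.16 (1.08 to 1.245) for Pp1s72_230V6. With library sums both were small excesses beyond counting error. The scaling matters for Pp1s64_60V6, whose interval ends close to 1. Without the 100 most abundant genes in the sums, the median log2 ratio over all genes that met the limits moved from -0.16 to -0.20. With TMM factors it moved to -0.09 and with DESeq2 size factors to -0.06. The log2 ratio of Pp1s64_60V6 shifts by the same amounts, so it falls in the first case and rises with TMM and DESeq2 scaling.

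Pp1s190_39V6, Pp1s313_9V6 and Pp1s145_1V6 were the members of these 10 in which at least 1 mutant library exceeded red-lit wild type by more than 1.4-fold. Pp1s190_39V6 had 49.2 RPKM in red-lit and 34.8 in dark pubs hy2, against 32.3 in red-lit and 132 in dark wild type, so that only the red-lit mutant library stood apart, at 1.495 times red-lit wild type (1.37 to 1.63). Pp1s313_9V6 had 42.0 and 44.0 RPKM in pubs hy2, against 26.9 and 97.5 in wild type. Pp1s145_1V6 had 49.2 and 38.9 RPKM in pubs hy2, against 13.6 and 83.3 in wild type. For Pp1s145_1V6 the dark mutant level was 2.80 times that of red-lit wild type (2.38 to 3.30) and 0.464 of that of dark wild type (0.412 to 0.521), an intermediate level.

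**Figure D4:**
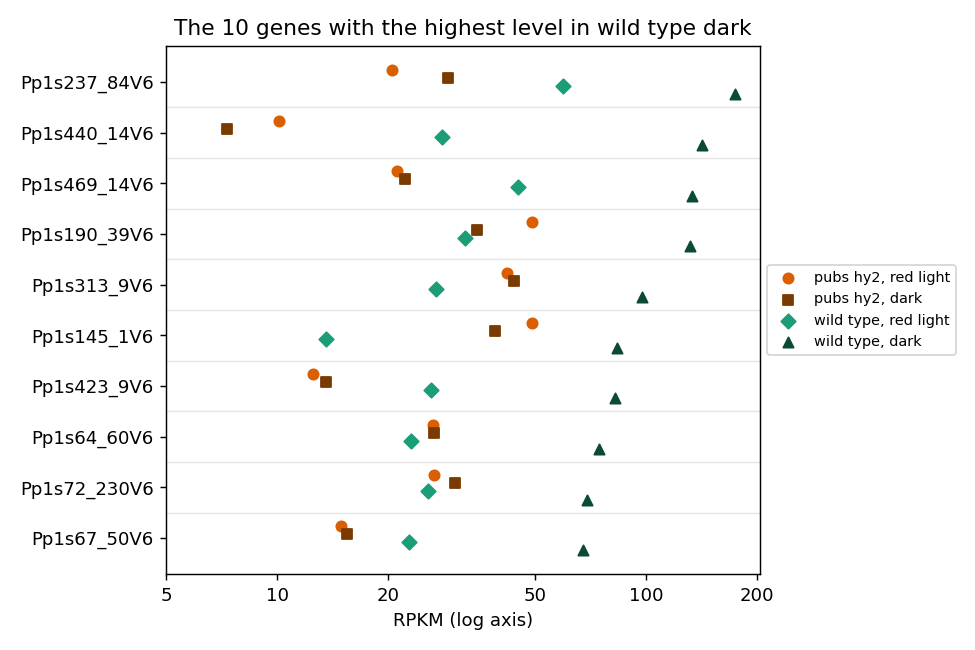
RPKM (log axis) in the 4 libraries of the 10 genes with the highest level in dark wild type, 1 gene per row and 1 symbol per library. Wild type dark is rightmost in each row. The mutant symbols lie left of red-lit wild type for Pp1s237_84V6, Pp1s440_14V6, Pp1s469_14V6, Pp1s423_9V6 and Pp1s67_50V6, and right of it for the other genes.

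The 5 genes with the lowest red light ratio in wild type were weakly to moderately expressed and rested on few reads after red light. Pp1s313_69V6 had 81 and 56 reads in pubs hy2 (red light and dark), against 16 and 134 in wild type, which gave the lowest ratio in wild type, 0.0877 (0.0474 to 0.144). Its RPKM was 3.63 and 3.845 in pubs hy2, against 0.660 and 7.87 in wild type. Dark pubs hy2 was 5.57 times as high as red-lit wild type (3.22 to 10.6), the highest such ratio of the set. Pp1s328_48V6 had a like shape, with 0.833 and 1.09 RPKM in pubs hy2, against 0.237 and 2.60 in wild type. Pp1s72_283V6 had 10.7 and 9.96 RPKM in pubs hy2, against 2.81 and 26.7 in wild type, from 247 and 151 reads and from 71 and 473 reads. It was the best counted of the 5, with a wild-type red light ratio of 0.108 (0.0824 to 0.138).

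Pp1s60_109V6 had the largest ratio of red light folds of the set, 13.4 (95% interval on the log scale 7.56 to 23.9). It had 1.54 and 1.14 RPKM in pubs hy2, against 0.403 and 4.14 in wild type. Pp1s4_236V6 came nearest of the 5 to red-lit wild type in its mutant level. It had a ratio of dark pubs hy2 to red-lit wild type of 1.02, with an interval (0.36 to 2.61) too wide to show a match. It had 13 and 8 reads in pubs hy2, against 13 and 102 in wild type, and so belonged also to the 5 lowest dark ratios, with 0.0964 (0.0383 to 0.187).

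The other 3 of the 5 lowest dark ratios were all poorly counted in pubs hy2. Pp1s101_22V6 had 8 and 4 reads in pubs hy2, against 22 and 60 in wild type, a dark ratio of 0.0865 (0.0205 to 0.209). Pp1s219_84V6 had 43 and 20 reads in pubs hy2, against 75 and 181 in wild type, a dark ratio of 0.131 (0.0767 to 0.204). Pp1s496_13V6 had 20 and 10 reads in pubs hy2, against 21 and 82 in wild type, a dark ratio of 0.148 (0.0656 to 0.274). In Pp1s101_22V6 and Pp1s219_84V6 both mutant libraries were below red-lit wild type, and in Pp1s496_13V6 the counting intervals of the mutant over red-lit wild type included 1.

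Within pubs hy2 the red light fold was bounded by the rule and had a median log2 value of 0.06. It was above 1 in 66 of the 118 genes. Its counting interval included 1 for 89 genes, lay above 1 for 19 and lay below 1 for 10. The shares over all genes are not given here, so nothing is read from these counts. The highest folds were those of Pp1s69_166V6 at 1.45 (0.585 to 4.32), Pp1s104_177V6 at 1.45 (1.28 to 1.64) and Pp1s190_39V6 at 1.42 (1.29 to 1.57). The counting interval of Pp1s69_166V6 was wide because it had 16 and 7 reads in pubs hy2. Pp1s104_177V6 had 17.7 and 12.3 RPKM in pubs hy2, against 15.1 and 43.9 in wild type, so the small mutant difference ran opposite to the wild-type one. The lowest folds were those of Pp1s171_30V6 at 0.694 (0.514 to 0.938), Pp1s218_132V6 at 0.694 (0.577 to 0.836) and Pp1s15_17V6 at 0.700 (0.325 to 1.52). Pp1s171_30V6 had 2.00 and 2.90 RPKM in pubs hy2, against 3.11 and 8.28 in wild type, and Pp1s218_132V6 had 4.63 and 6.71 RPKM, against 6.18 and 19.1. For Pp1s171_30V6 and Pp1s218_132V6 a smaller difference in the same direction as in wild type was thus within the limits of the rule.

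Genes close to a limit show how sharp the choice was. Pp1s39_139V6 was the nearest inside the wild-type limit, with a ratio of 0.396, and Pp1s16_172V6 the nearest outside, with 0.4001. Pp1s358_60V6 was the nearest inside the dark limit, with 0.4999, and Pp1s11_367V6 the nearest outside, with 0.502. For the lower limit on the red light ratio in pubs hy2, Pp1s171_30V6 had 0.694 and Pp1s52_53V6, outside, had 0.667. For the upper limit, Pp1s69_166V6 had 1.45 and Pp1s154_115V6, outside, had 1.51. Pp1s7_334V6 had exactly 50 reads in dark wild type, and Pp1s13_211V6 missed the minimum with 49. Pp1s287_30V6 was the only one of the 118 with any multi-mapping reads, at most 7.78% in a library, and Pp1s4_32V6 was left out with 18.3%. Missing by a single limit left out 1190 genes at the wild-type limit, 194 at the dark limit, 27 and 47 at the lower and upper limits in pubs hy2, 39 at the minimum reads and 9 at the multi-mapping limit.

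For many genes the counting interval reached across a limit. The whole counting interval lay at or below the wild-type limit for 72 genes and at or below the dark limit for 75, and for 50 genes at or below both. For 26 genes the intervals of all 3 ratios lay wholly within the limits. Pp1s469_14V6, Pp1s313_9V6, Pp1s64_60V6, Pp1s72_230V6, Pp1s67_50V6 and Pp1s72_283V6 were among these 26. In the set 22 genes had under 100 reads in dark wild type, and 17 had under 20 reads in at least 1 library.

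The set spanned a wide range of levels, with a lower median than the genes it was chosen from. RPKM in dark wild type ran from 0.394 to 174, with a median of 8.41, against 13.2 over the 15862 genes that met the limits. At least 100 RPKM was found for 4 genes, at least 50 for 16 and at least 10 for 56, and 41 were under 5. When the set was divided at its median mean RPKM into 59 genes each, the median red light ratio in wild type was 0.297 in the weaker genes and 0.315 in the stronger ones. The median dark ratio was 0.330 and 0.356, and the median of dark pubs hy2 over red-lit wild type was 1.16 in each. Both of the first ratios were cut off by the rule, so their medians say little about level. The interval of the wild-type ratio spanned a median of 2.04-fold in the weaker and 1.30-fold in the stronger genes.

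Gene length was not used by the rule. The 118 genes had a median length of 1.89 kb (0.105 to 10.8), against 1.86 kb over all genes that met the limits. The most similar other sets had 1.88 kb (71 genes reduced in wild type, with pubs hy2 near wild type in the dark and steady in red light) and 1.73 kb (108 genes reduced in wild type and with a red light ratio under 0.67 in pubs hy2). Across the 118 genes, which share libraries and are not independent replicates, Spearman's correlation with length was 0.08 for the red light ratio in wild type and -0.10 for the dark ratio. The 71 genes had a median of 9.29 RPKM in dark wild type and 2.90 in red-lit wild type, close to the 8.41 and 2.68 of the 118 genes, while in dark pubs hy2 they had 8.87 RPKM, against 3.09 for the 118 genes, as the limits on the dark ratio set it. The 108 genes had 8.37 RPKM in dark pubs hy2 and 4.77 in red-lit pubs hy2.

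The identifiers carry a scaffold number and a gene number, which served as a rough guide to position. The 118 genes fell on 97 scaffold numbers. On 19 of these lay 2 or more of the genes, 40 in all, and at most 3 on any. The same count for other genes is not given here, so no clustering is read from it. Only 1 pair differed by at most 2 in gene number, Pp1s8_135V6 and Pp1s8_137V6, which stand next to each other by gene number. Pp1s8_135V6 had 7.16 and 7.80 RPKM in pubs hy2, against 4.18 and 18.7 in wild type, and Pp1s8_137V6 had 1.67 and 1.89 RPKM, against 1.70 and 5.29. The library protocol in the labels names no step that keeps strand, so reads of neighbouring genes that overlap could not be told apart. Another 3 pairs differed by at most 10, namely Pp1s112_172V6 and Pp1s112_177V6, Pp1s67_50V6 and Pp1s67_56V6, and Pp1s33_251V6 and Pp1s33_258V6. Of these, Pp1s33_251V6 and Pp1s33_258V6 also have no other listed gene between them. Pp1s33_251V6 had 3.94 and 2.81 RPKM in pubs hy2, against 1.94 and 9.97 in wild type, and Pp1s33_258V6 had 1.47 and 1.78 RPKM, against 1.23 and 6.74 (red light and dark).

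Of 230 genes next to a member by gene number, 4 were members themselves, those of the 2 pairs just described, and another 114 met the read and multi-mapping limits. A red light ratio in wild type of at most 0.5 was found for 8 of the 114 (7.02%), against 5.43% of all 15862 genes. A dark ratio of at most 0.5 was found for 15 (13.2%), against 13.2% of all. With the 4 members counted too, the shares were 10.2% and 16.1%. Members meet both limits by the rule, so this rise was fixed in advance and nothing is read from it. The median log2 folds of the 114 neighbours were -0.11 in wild type between red light and dark, and -0.33 in the dark between pubs hy2 and wild type, against -0.06 and -0.23 over all genes that met the limits.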

How the data were processed

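Messenger RNA of 4 Physcomitrium patens libraries, 1 per group, was analysed from the authors' files. Per the file headers the authors deposited estimated counts of reads (95.4% to 95.6% of values exactly whole), an RPKM value, the multi-mapping share as a fraction, and a length in kilobases for each gene. Not given in the sources used here are the aligner, the genome build and how multi-mapping reads were shared out. Poly-A RNA was copied by random priming and amplified by PCR, per the labels' protocols. No molecular identifiers are described, so intervals and the floor of 3 counts, set for each library, cover counting error only.

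Levels were scaled by library sums. Counts were rounded to whole numbers for intervals, and folds were taken after adding 0.5. Alternatives used TMM factors from edgeR 4.0.16 and size factors from DESeq2 1.42.0 (R 4.3.3), the authors' RPKM and other limits. The intended lists of named genes and cell type markers could not be used. Named genes were those with the 10 highest RPKM in dark wild type, the extremes of each ratio (3 or 5), the nearest to each limit, and pairs at most 2 apart in gene number. Pairs up to 10 apart and those listed among the 26 genes were chosen after their values were seen. The rule and the size rule recovered known changes when tested on simulated data. Their recovery of changes close to a limit, of changes in weakly counted genes, and under variation between cultures was not tested. The 118 genes and the lists were chosen with earlier results of these data known. The remaining steps used Python 3.11.15 with pandas 2.3.3, numpy 2.4.6, matplotlib 3.10.9 and scipy 1.17.1.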

Additional observations from a re-analysis of the deposited data

Results flagged for a closer look

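For 4 of the named genes red light went with a lower level in wild type and a higher level in pubs hy2, and in each the counting interval excluded 1 in both genotypes. This difference has no test, since no group has a second library. On the log2 scale the mutant fold exceeded the wild-type fold by 2.79 for Pp1s440_14V6, 2.51 for Pp1s190_39V6, 2.94 for Pp1s145_1V6 and 2.05 for Pp1s104_177V6. Taken alone, the mutant folds were 1.39, 1.42, 1.27 and 1.45 in that order, within the limits that chose the genes. Of all 118 genes, 19 had a mutant interval above 1, and the share over all genes is not given here.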

How the results depend on the processing

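No paired analysis was possible because each group has 1 library. Under other scalings the rule found 100 genes with TMM factors, 95 with DESeq2 size factors, 93 of them among the 118, 136 with sums that leave out the 100 most abundant genes, and 129 with the authors' RPKM. The dark comparison moved most: its median log2 fold over all genes that met the limits was -0.23 with library sums, -0.12 with TMM factors and -0.08 with DESeq2 size factors, and the median of the 118 genes was -1.54, -1.43 and -1.39. By the size rule 100 and 97 of the 118 were then still called lower in dark pubs hy2. Other limits moved the number of genes to 187 (wild-type limit 0.5), 36 (0.25), 21 (dark limit 0.25) and 76 (a narrower window for the red light ratio in pubs hy2). Asking for whole counting intervals within limits, an alternative chosen after seeing the data, left 50 genes for the ratios to dark wild type and 26 for all 3 ratios. With a fold of at least 3, the genes called were 74 for red light in wild type, 55 for the genotypes in the dark and 8 for the genotypes in red light, where a fold of at least 1.5 called 48. The shares of all genes called at these folds and under the other scalings are not given here. Nothing is therefore read from the counts called at these settings. Every other alternative tried for the number of genes and for the size rule counts of the 5 comparisons gave a value within 1.5 times that reported. The remaining counts were not recomputed under other settings. Of 348 log2 folds of named genes recomputed under other scalings, 12 left their counting interval. Depth limits the weak genes most, with 17 genes under 20 reads in a library.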
